A study of Rattus norvegicus with 9 samples.

Results

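10 genes commonly read as outputs of the transcriptional coactivator YAP were followed through siRNA knockdown in rat heart cells: Ctgf, Cyr61, Ankrd1, Amotl2, Axl, Crim1, Nuak2, Fjx1, Myof and Ccdc80. They were chosen by symbol, with earlier results of these data known. Each matched 1 row, and they make up 10 of the 14636 genes in the table. All 10 passed the filter on low values, at least 1 FPKM in at least 3 libraries, as did 10789 genes in all. FPKM scales the fragments of a gene by transcript length and by the library's total, so levels of different genes can be compared per length. The cells were primary cardiac myocytes of 2-day-old Sprague Dawley rats, transfected 16 h after plating and collected 48 h later, all in medium with 15% serum. One group received siRNAs against Llgl1 and Llgl2, a pair of basolateral polarity genes (Llgl1/2 siRNA), another received siRNAs against Yap, and the third received a universal negative control siRNA, with 3 libraries in each. Per the labels, 2 siRNAs per target were used, each at 25 nM. The amount of siRNA in the Llgl1/2 group, which had more than 1 target, cannot be told apart from the identity of its targets.

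YAP has no DNA-binding domain of its own and acts through the TEAD transcription factors, which recognise the short motif GGAATG. The Hippo kinases LATS1 and LATS2 phosphorylate YAP and hold it in the cytoplasm, so a low level of YAP target transcripts is commonly read as low YAP activity. In the newborn heart YAP is known for sustaining myocyte proliferation, and polarity proteins of the Llgl family are known from flies, as lethal giant larvae, to act on the pathway.

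The FPKM sum ran from 572884 to 620119 per library and 12703 to 12831 genes were above 0. Where the same few reads of a weak gene could be matched between libraries, the depth of each library was 1.00 to 1.10 times that of Llgl1/2 library 1, and the absolute depth is unknown. Working cardiomyocyte markers were abundant, with Tnnt2, the cardiac troponin T gene, at 5669 ± 161, 8924 ± 760 and 5372 ± 462 FPKM in Llgl1/2, Yap and control siRNA libraries (SD, n = 3 each). None of the markers of other cell types read here was at 0 in every library. The targeted genes were checked first. Llgl1 was at 4.76, 4.65 and 4.75 FPKM in the Llgl1/2 siRNA libraries, against 12.1, 11.9 and 12.4 in the control libraries. Llgl2 was at 6.51, 7.33 and 7.62 FPKM in the Llgl1/2 siRNA libraries, against 13.9, 12.04 and 14.9 in the controls. Yap1 was at 5.90, 4.43 and 6.0 FPKM in the Yap siRNA libraries, against 55.3, 60.8 and 63.1 in the controls. So 38.9% of the control mean was left for Llgl1, 52.5% for Llgl2 and 9.11% for Yap1, and none of these treated libraries overlapped a control library. Yap siRNA also lowered Llgl1, with 9.50, 7.14 and 9.88 FPKM, and Llgl2, with 8.11, 8.69 and 12.01 FPKM, again below every control. Llgl1 fell by 0.43 ± 0.11 (SE) on the log2 scale after Yap siRNA (limma, adjusted p = 0.0064) and Llgl2 fell by 0.48 ± 0.13 (adjusted p = 0.0086), so both knockdowns lowered these genes. Between Llgl1/2 siRNA and Yap siRNA, Llgl2 stood at -0.36 ± 0.13 (limma, adjusted p = 0.036), a call lost in 5 of 13 other settings, with adjusted p-values of 0.061 to 0.159, among them the fits without Llgl1/2 library 1 or 2 or Yap library 3. Nothing in the labels says that libraries of a group were separate cultures, so the p-values here describe differences among these libraries only, and their spread could be technical.

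In the control libraries the 10 genes spanned a wide range of levels. Ankrd1 had the fifth highest mean of all genes in the table, followed among the members by Ctgf, Cyr61, Amotl2, Crim1, Axl, Myof, Ccdc80, Nuak2 and Fjx1. Neighbours in this order overlapped in only 2 cases, Axl with Myof and Nuak2 with Fjx1.

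At an adjusted p of 0.05, all 10 genes were called lower after Yap siRNA, and 9 of the 10 after Llgl1/2 siRNA. Amotl2 was also lower after Llgl1/2 siRNA but did not pass (limma, adjusted p = 0.070). The genes were chosen with earlier results of these data known, so these counts describe them and are not an independent test. In limma's test across all 10789 genes, at an adjusted p of 0.05, 27.5% of all genes were lower after Yap siRNA and 18.1% after Llgl1/2 siRNA, so lower calls were common in general. Higher calls were made for 20.5% and 22.1%, and calls in either direction for 48.0% and 40.2%. The median log2 difference of the 10 genes was -0.52 after Yap siRNA and -0.37 after Llgl1/2 siRNA, beside -0.065 and 0.033 for all tested genes. Mean levels stood at 36.9% to 83.2% of the control mean after Yap siRNA and at 51.8% to 89.1% after Llgl1/2 siRNA. Libraries did not overlap with the controls for any of the 10 genes after Yap siRNA, where 31.6% of all genes lay wholly below the controls, and for 8 after Llgl1/2 siRNA, where 24.0% did. The 2 knockdowns share the same 3 control libraries, so the separate falls are not independent of each other. These are bulk libraries, in which fewer cells of a type and less RNA per cell cannot be told apart.

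**Figure D1:**
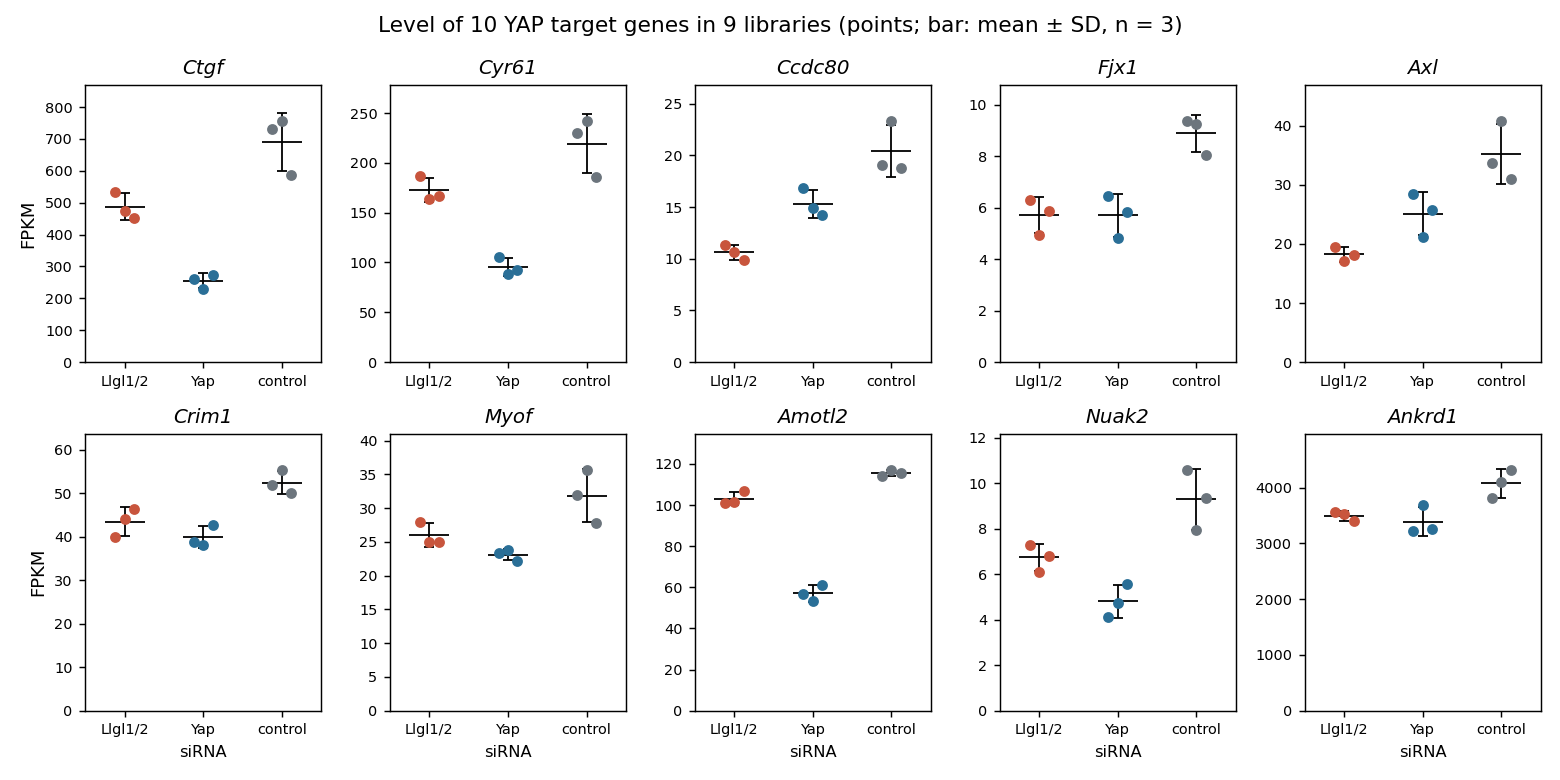
FPKM of each of the 10 genes (y axis, linear, from 0) in the 3 libraries of each siRNA group (x axis); points are libraries and bars the mean ± SD, n = 3. Ctgf, Cyr61, Amotl2 and Nuak2 were lowest after Yap siRNA, and Axl and Ccdc80 were lowest after Llgl1/2 siRNA.

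Ctgf (gene ID 64032) and Cyr61 (gene ID 83476) encode secreted matricellular proteins of the CCN family and are the most widely used readouts of YAP. Ctgf was at 534, 475 and 453 FPKM after Llgl1/2 siRNA and at 262, 229 and 274 FPKM after Yap siRNA, against 731, 756 and 585 FPKM in the controls. No library of any group overlapped another group, and control library 3 was the lowest of the controls. Ctgf fell by 0.50 ± 0.10 (SE) on the log2 scale after Llgl1/2 siRNA (limma, adjusted p = 0.0019) and fell by 1.43 ± 0.10 after Yap siRNA (adjusted p = 1.8e-07). The Yap siRNA libraries kept 36.9% of the control mean, the lowest share among the 10 genes, and the Llgl1/2 siRNA libraries kept 70.6%. Cyr61 had the same order at a lower level, with 187, 164 and 167 FPKM after Llgl1/2 siRNA and 106, 88.3 and 92.0 FPKM after Yap siRNA, against 230, 242 and 186 FPKM in the controls. The Yap siRNA libraries lay below all others, while Llgl1/2 library 1 and control library 3 overlapped. Cyr61 fell by 1.19 ± 0.10 after Yap siRNA (limma, adjusted p = 7.4e-07). Its fall after Llgl1/2 siRNA, 0.34 ± 0.10 on the log2 scale (adjusted p = 0.016), was no longer called in 4 of the 6 fits that leave out 1 library, those without Llgl1/2 library 2 (adjusted p = 0.065) or 3 (0.058) or control library 1 (0.064) or 2 (0.085).

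Ccdc80 and Fjx1 encode further secreted proteins. Ccdc80 (gene ID 64387), a matrix-binding protein, was at 11.3, 10.7 and 9.90 FPKM after Llgl1/2 siRNA and at 16.9, 14.9 and 14.2 FPKM after Yap siRNA, against 19.1, 23.3 and 18.8 FPKM in the controls. The 3 groups did not overlap, and here the Llgl1/2 siRNA libraries were the lowest. Ccdc80 fell by 0.88 ± 0.10 on the log2 scale after Llgl1/2 siRNA (limma, adjusted p = 2.3e-05) and fell by 0.39 ± 0.10 after Yap siRNA (adjusted p = 0.0065). Fjx1 (gene ID 366140) is the rat form of four-jointed, which in flies is a Golgi kinase that acts on the atypical cadherins Fat and Dachsous. It was at 6.32, 4.93 and 5.88 FPKM after Llgl1/2 siRNA and at 6.47, 4.81 and 5.83 FPKM after Yap siRNA, against 9.37, 9.26 and 8.06 FPKM in the controls. Both knockdowns left about the same level, 64.2% of the control mean after Llgl1/2 siRNA and 64.1% after Yap siRNA. Fjx1 fell by 0.56 ± 0.12 after Llgl1/2 siRNA (limma, adjusted p = 0.0025) and fell by 0.57 ± 0.12 after Yap siRNA (adjusted p = 0.0018).

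Axl, Crim1 and Myof encode proteins that sit in membranes. Axl (gene ID 308444) encodes a receptor tyrosine kinase of the TAM family, whose ligand is GAS6. It was at 19.5, 17.1 and 18.1 FPKM after Llgl1/2 siRNA and at 28.4, 21.3 and 25.8 FPKM after Yap siRNA, against 33.8, 40.8 and 31.0 FPKM in the controls. Its row lists 2 transcripts, and how they were combined is not given. As for Ccdc80, the 3 groups did not overlap and the Llgl1/2 siRNA libraries were the lowest, at 51.8% of the control mean against 71.5% after Yap siRNA. Axl fell by 0.90 ± 0.12 on the log2 scale after Llgl1/2 siRNA (limma, adjusted p = 4.5e-05) and fell by 0.47 ± 0.12 after Yap siRNA (adjusted p = 0.0042). Crim1 (gene ID 298744), a transmembrane protein that binds bone morphogenetic proteins, was at 39.9, 44.1 and 46.4 FPKM after Llgl1/2 siRNA and at 38.8, 38.1 and 42.8 FPKM after Yap siRNA, against 52.0, 55.4 and 50.1 FPKM in the controls. All 6 knockdown libraries were below the controls, by a small margin. Crim1 fell by 0.39 ± 0.080 after Yap siRNA (limma, adjusted p = 0.0012), and its fall of 0.27 ± 0.080 on the log2 scale after Llgl1/2 siRNA (adjusted p = 0.016) was lost without Llgl1/2 library 1 (adjusted p = 0.072) or control library 2 (0.075). Myof (gene ID 309499), myoferlin, a calcium-binding membrane protein of the ferlin family, was at 28.0, 25.0 and 24.9 FPKM after Llgl1/2 siRNA and at 23.3, 23.7 and 22.2 FPKM after Yap siRNA, against 32.0, 35.7 and 27.8 FPKM in the controls. Llgl1/2 library 1 and control library 3 nearly coincided, so those groups overlapped, and the Yap siRNA libraries lay below all controls. Myof fell by 0.44 ± 0.092 after Yap siRNA (limma, adjusted p = 0.0015). The fall after Llgl1/2 siRNA was 0.28 ± 0.092 (adjusted p = 0.028), and it was lost without Llgl1/2 library 2 (adjusted p = 0.093) or 3 (0.097) or control library 1 (0.074) or 2 (0.145).

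Amotl2 and Nuak2 act inside the cell. Amotl2 (gene ID 65157), a junction protein of the angiomotin family that can bind YAP and hold it out of the nucleus, had the tightest control values of the 10 genes, with a coefficient of variation of 1.24%. It was at 101, 101 and 107 FPKM after Llgl1/2 siRNA and at 56.6, 53.3 and 61.2 FPKM after Yap siRNA, against 114, 117 and 116 FPKM in the controls. The groups did not overlap, but the Llgl1/2 siRNA libraries lay only slightly under the controls. After Yap siRNA Amotl2 fell by 1.01 ± 0.069 on the log2 scale (limma, adjusted p = 9.9e-08). After Llgl1/2 siRNA it stood at -0.17 ± 0.069 (adjusted p = 0.070), with a 95% interval of the difference, not adjusted over genes, of -0.31 to -0.018. It passed the threshold with median-ratio scaling (adjusted p = 0.029), in a fit of only the 6 libraries compared (0.036) and with replicate number as a block (0.048). Nuak2 (gene ID 289419), a kinase of the AMPK-related family, was at 7.30, 6.11 and 6.82 FPKM after Llgl1/2 siRNA and at 4.12, 4.75 and 5.56 FPKM after Yap siRNA, against 10.6, 7.93 and 9.34 FPKM in the controls. The 3 groups were separate, although control library 2 came close to Llgl1/2 library 1. Nuak2 fell by 0.82 ± 0.13 after Yap siRNA (limma, adjusted p = 0.00013). After Llgl1/2 siRNA it fell by 0.40 ± 0.13 (adjusted p = 0.021), a call that was lost without Llgl1/2 library 2 (adjusted p = 0.084) or control library 1 (0.101) or 3 (0.051).

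Ankrd1 (gene ID 27064) encodes cardiac ankyrin repeat protein, a stress-responsive factor of the nucleus and sarcomere that is a classical YAP target in many cell types and a highly expressed gene of the myocyte itself. It was at 3559, 3533 and 3396 FPKM after Llgl1/2 siRNA and at 3226, 3694 and 3250 FPKM after Yap siRNA, against 3808, 4098 and 4319 FPKM in the controls. Every knockdown library was below every control, and the changes were small beside the level. With 83.2% of the control mean left after Yap siRNA and 85.8% after Llgl1/2 siRNA, Ankrd1 kept the largest share of its control level after Yap siRNA among the 10 genes. It fell by 0.27 ± 0.081 on the log2 scale after Yap siRNA (limma, adjusted p = 0.014), a call lost with median-ratio scaling (adjusted p = 0.073) and without control library 3 (0.052) or Yap library 1 (0.057). Its fall of 0.22 ± 0.081 after Llgl1/2 siRNA (adjusted p = 0.043) was lost in 5 of the 6 fits that leave out 1 library (adjusted p = 0.061 to 0.14) and remained only without control library 1 (0.044).

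Leaving out 1 library at a time gave 9 or 10 falls after Yap siRNA. After Llgl1/2 siRNA it gave 5 to 7, with 5 without Llgl1/2 library 2 or without control library 2. Each such fit has fewer libraries, and the shares of all genes called in them are not given here. The lower counts are therefore not read as a trait of these genes. Ctgf, Axl, Fjx1 and Ccdc80 were called after Llgl1/2 siRNA in all 6 of those fits, with adjusted p-values up to 0.016. At an adjusted p of 0.01, 4 genes passed after Llgl1/2 siRNA, beside 26.0% of all genes. With a log2 difference of at least 0.5 asked for as well as an adjusted p of 0.05, 3 passed after Llgl1/2 siRNA, beside 17.1% of all genes, and 5 after Yap siRNA, beside 21.9%.

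The direct comparison of Llgl1/2 siRNA with Yap siRNA asked where the knockdowns differ. Of the 10 genes, 6 passed, beside 47.0% of all tested genes, and nothing is read from that count. Ctgf, Cyr61, Amotl2 and Nuak2 were higher after Llgl1/2 siRNA than after Yap siRNA, Axl and Ccdc80 were lower, and Fjx1, Ankrd1, Crim1 and Myof did not pass the test. In all, 47.0% of tested genes differed, 28.0% higher and 19.0% lower, or 3024 and 2046 genes. With median-ratio scaling the split of all genes was 2355 higher and 2572 lower, and 6 of the 10 genes passed under either scaling. Libraries of the 2 knockdowns did not overlap for 7 of the 10 genes, 5 higher after Llgl1/2 siRNA (Myof besides the 4 above) and 2 lower, beside 32.9% and 21.4% of all genes. With a log2 difference of at least 0.5, 3 genes passed, beside 20.4% of all genes. Ctgf differed by 0.93 ± 0.10 (SE) on the log2 scale (limma, adjusted p = 1.0e-05), Cyr61 by 0.85 ± 0.10 (adjusted p = 1.8e-05) and Amotl2 by 0.84 ± 0.069 (adjusted p = 6.9e-07). In terms of mean FPKM, these 3 genes stood 1.91-fold, 1.81-fold and 1.81-fold higher after Llgl1/2 siRNA. Nuak2 differed by 0.42 ± 0.13 (adjusted p = 0.015), which was lost with quantile normalization (adjusted p = 0.072) and without Llgl1/2 library 1 (0.056) or Yap library 1 (0.064). On the other side, Axl was at -0.44 ± 0.12 (limma, adjusted p = 0.0068) and Ccdc80 at -0.49 ± 0.10 (adjusted p = 0.0016). For the remaining genes the 95% intervals of the difference, not adjusted over genes, were -0.13 to 0.22 for Ankrd1, -0.050 to 0.29 for Crim1, -0.26 to 0.27 for Fjx1 and -0.035 to 0.36 for Myof. Each interval includes differences of either sign. Ankrd1 passed with quantile normalization, at 0.24 ± 0.071 (adjusted p = 0.014).

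**Figure D2:**
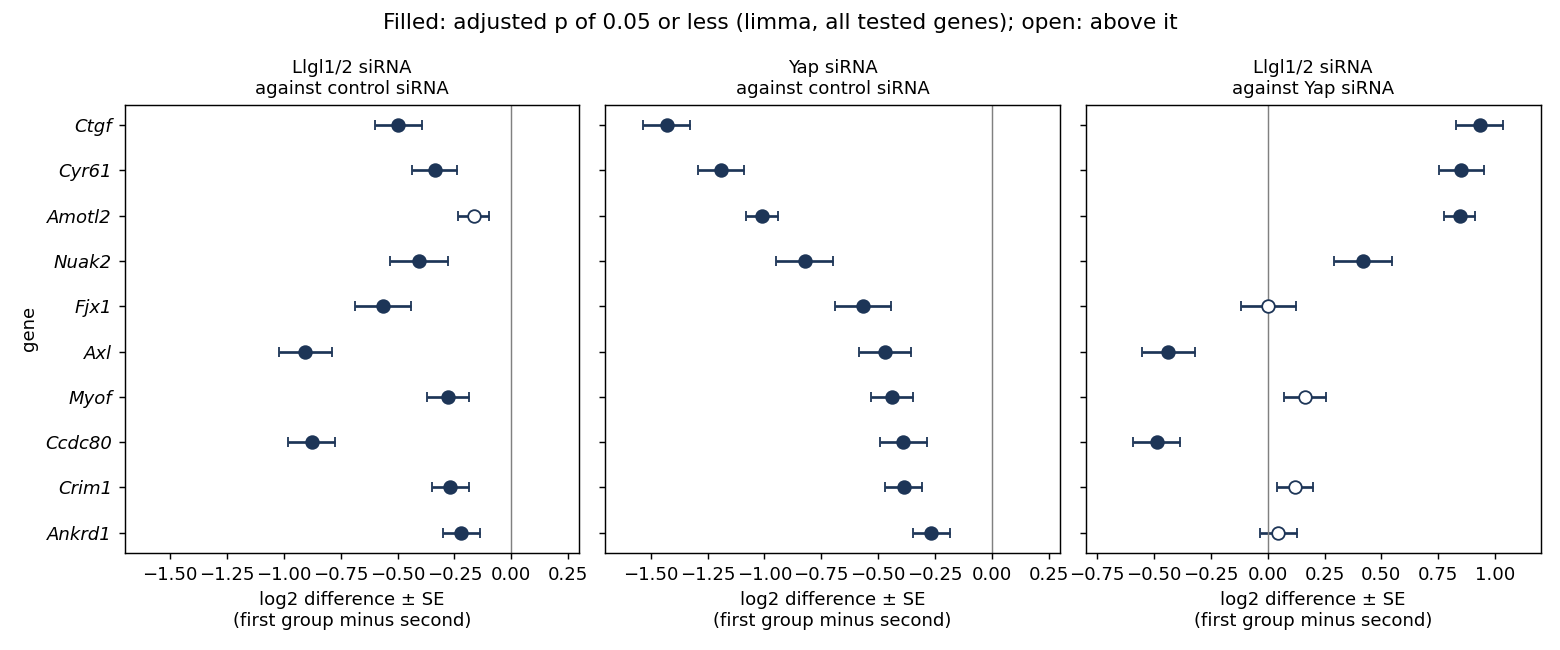
Log2 difference ± SE of each gene (x axis) in 3 comparisons, from the limma fit over 9 libraries, with genes ordered by their difference after Yap siRNA; filled points have an adjusted p of 0.05 or less. In the right panel Ctgf, Cyr61, Amotl2 and Nuak2 lie to the right of 0, and Axl and Ccdc80 to the left.

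Promoter windows were read for the same genes, because TEAD factors can bind near the start of a gene. RefSeq's table for the GRCr8 assembly held a window, 250 bases before to 50 after the annotated start, for 9 of the 10 genes, all but Ankrd1. Values were made on rn6, a different assembly, so positions below are those of GRCr8 and were not linked to reads. The TEAD motif GGAATG, on either strand (CATTCC on the other), occurred in 4 of the 9 windows, those of Ctgf, Cyr61, Amotl2 and Nuak2, and in 14.2% of all 33469 windows. These are the same 4 genes that were called lower after Yap siRNA than after Llgl1/2 siRNA. This describes 9 genes without a test, and it rests on the threshold. Myof has no match, and its Yap siRNA libraries (22.2 to 23.7 FPKM) also lay below its Llgl1/2 siRNA libraries (24.9 to 28.0 FPKM). The Nuak2 call was lost in 5 other settings. The 250 bases before the start are shown for the 4 genes with a match, with the motif in capitals. They are also shown for Axl and Ccdc80, which differed the other way and have no match.
Ctgf, chr1:22624615-22624864, - strand: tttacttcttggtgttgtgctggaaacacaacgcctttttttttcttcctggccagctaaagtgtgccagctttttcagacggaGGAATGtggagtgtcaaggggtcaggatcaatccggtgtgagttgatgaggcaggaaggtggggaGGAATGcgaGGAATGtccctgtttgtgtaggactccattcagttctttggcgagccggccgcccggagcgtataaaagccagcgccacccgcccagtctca
Cyr61, chr2:237225690-237225939, - strand: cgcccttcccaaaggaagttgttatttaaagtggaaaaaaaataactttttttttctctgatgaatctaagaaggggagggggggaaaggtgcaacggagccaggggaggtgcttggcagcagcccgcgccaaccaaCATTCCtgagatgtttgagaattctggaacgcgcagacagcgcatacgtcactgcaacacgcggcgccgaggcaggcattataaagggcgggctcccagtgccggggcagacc
Amotl2, chr8:112182376-112182625, + strand: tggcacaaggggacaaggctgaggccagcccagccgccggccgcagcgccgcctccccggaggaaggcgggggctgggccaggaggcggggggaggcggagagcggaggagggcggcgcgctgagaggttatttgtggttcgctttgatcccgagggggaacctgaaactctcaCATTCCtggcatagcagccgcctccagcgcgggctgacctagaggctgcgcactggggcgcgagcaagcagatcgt
Nuak2, chr13:46305756-46306005, + strand: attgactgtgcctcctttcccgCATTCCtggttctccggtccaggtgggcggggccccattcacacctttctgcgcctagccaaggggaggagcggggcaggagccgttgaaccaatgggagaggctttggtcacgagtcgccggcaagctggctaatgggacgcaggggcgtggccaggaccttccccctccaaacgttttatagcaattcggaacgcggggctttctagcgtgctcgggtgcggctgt
Axl, chr1:90424010-90424259, - strand: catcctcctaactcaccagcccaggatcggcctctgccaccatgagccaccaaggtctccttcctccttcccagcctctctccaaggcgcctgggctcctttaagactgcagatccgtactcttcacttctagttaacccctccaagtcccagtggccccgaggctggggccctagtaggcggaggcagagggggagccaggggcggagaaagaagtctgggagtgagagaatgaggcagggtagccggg
Ccdc80, chr11:69224845-69225094, - strand: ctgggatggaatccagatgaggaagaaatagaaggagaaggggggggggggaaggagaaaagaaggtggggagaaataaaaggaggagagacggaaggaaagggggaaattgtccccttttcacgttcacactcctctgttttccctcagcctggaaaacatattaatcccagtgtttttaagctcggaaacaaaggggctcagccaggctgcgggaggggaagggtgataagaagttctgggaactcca

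Ctgf held 3 copies of the motif, all reading towards the gene, 166, 101 and 92 bases before the start, counted from the end of each copy farther from it. Cyr61 held 1 copy on the other strand, 113 bases before the start, Amotl2 1 at 76 bases and Nuak2 1 at 228 bases. A TATA box, TATAAA on the strand of the gene, occurred in Ctgf and Cyr61 and began 31 and 34 bases before their starts, and TATAAA was in 8.80% of all windows. The AP-1 motif TGANTCA (N is any base, read on both strands) was in none of the 9 windows and in 7.33% of all windows. The CArG box of serum response factor was also in none of the 9, and in 1.64% of all windows. No match overlapped another in these windows, and a missing match says only that the letters are not in this window.

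**Figure D3:**
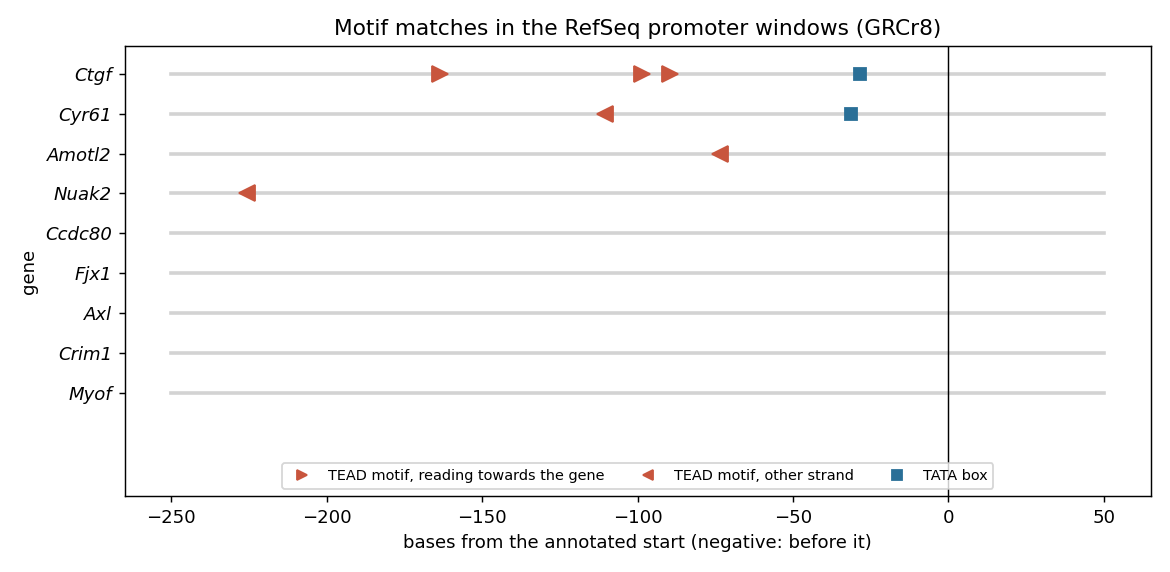
Matches of the TEAD motif (triangles pointing along the strand that reads GGAATG) and of TATAAA (squares) by distance in bases from the annotated start (x axis), in the promoter windows of 9 genes (rows). Matches of the TEAD motif lie in the top 4 rows, Ctgf with 3 and Cyr61, Amotl2 and Nuak2 with 1 each.

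The profile most like that of each gene over the 9 libraries was sought among 8350 tested genes with a mean of at least 5 FPKM. Likeness was measured by the root mean square gap between log2(FPKM + 1) values, each taken from the gene's own control mean, and described no more than that. For the 5 members with the widest range, the nearest gene to Ctgf was Ect2, a gene needed for cytokinesis, with a gap of 0.117. The nearest to Cyr61 was Nxn, which encodes nucleoredoxin, at 0.0880. Amotl2 was nearest to Sh3tc1 at 0.0739, Axl to Fcgr2a, an antibody receptor gene of leukocytes, at 0.0756, and Ccdc80 to Fosl1, an AP-1 subunit gene, at 0.0764. The median gap to all candidates was 0.60 to 0.87 for these 5 genes. Ect2 averaged 10.6 ± 0.060 FPKM after Llgl1/2 siRNA and 5.11 ± 0.49 FPKM after Yap siRNA, against 14.4 ± 1.12 FPKM in the controls (SD, n = 3 each).

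The 10 genes belong to a YAP/TAZ target signature of 22 genes, of which 12 others were listed and 8 analysed here (not Foxf2, Dock5, Arhgef17 or Rbms3). Of these 8, 4 fell and 2 rose after Yap siRNA, and 1 fell and 1 rose after Llgl1/2 siRNA. Over all tested genes, 27.5% fell and 20.5% rose after Yap siRNA, and 18.1% fell and 22.1% rose after Llgl1/2 siRNA. The median log2 difference of the 8 was -0.58 after Yap siRNA and -0.056 after Llgl1/2 siRNA, beside -0.065 and 0.033 for all tested genes. Tgfb2, a transforming growth factor ligand gene, was at 94.1, 94.1 and 96.4 FPKM after Llgl1/2 siRNA and at 31.1, 28.2 and 30.0 FPKM after Yap siRNA, against 93.5, 107 and 88.4 FPKM in the controls. Only the Yap siRNA libraries were apart, and Tgfb2 fell by 1.66 ± 0.078 on the log2 scale there (limma, adjusted p = 4.4e-09). Lats2, the Hippo kinase gene that is itself a YAP target, averaged 16.6 ± 0.59 FPKM after Yap siRNA, against 37.2 ± 1.18 FPKM in the controls, and fell by 1.12 ± 0.072 (adjusted p = 6.6e-08). F3, the tissue factor gene, fell by 1.31 ± 0.16 (adjusted p = 2.1e-05). In the Llgl1/2 siRNA libraries Tgfb2, Lats2 and F3 stood at -0.017 ± 0.078, -0.031 ± 0.072 and -0.022 ± 0.16 against the controls (limma, adjusted p of 0.88, 0.76 and 0.93). In the direct comparison the 3 genes were higher after Llgl1/2 siRNA by 1.64, 1.09 and 1.29 on the log2 scale (limma, adjusted p up to 3.0e-05).

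Nt5e and Asap1 moved the other way after Yap siRNA. Nt5e, which encodes the ectonucleotidase CD73, was at 21.9, 31.7 and 22.9 FPKM after Yap siRNA, against 13.2, 16.8 and 14.6 FPKM in the controls, and rose by 0.73 ± 0.13 (limma, adjusted p = 0.00038). The other riser was Asap1, an ARF GTPase activator gene, at 0.28 ± 0.097 (adjusted p = 0.027), named after its value was seen. The Asap1 call was lost with equal FPKM sums and without control library 1 or 3 or Yap library 2, which left 1 riser, Nt5e. Igfbp3, an insulin-like growth factor binding protein gene, was at 9.21, 4.89 and 6.09 FPKM after Llgl1/2 siRNA and at 26.3, 20.1 and 16.3 FPKM after Yap siRNA, against 31.3, 34.3 and 21.6 FPKM in the controls. Its Llgl1/2 siRNA libraries were the lowest, as for Axl and Ccdc80, while its Yap siRNA libraries overlapped the controls. Igfbp3 fell by 1.97 ± 0.235 after Llgl1/2 siRNA (limma, adjusted p = 0.00012), and in the direct comparison with Yap siRNA it stood at -1.51 ± 0.235 (limma, adjusted p = 0.00049). Gadd45a, a stress and DNA damage gene, rose by 0.21 ± 0.079 after Llgl1/2 siRNA (adjusted p = 0.049), a call lost in 5 of the 6 fits that leave out 1 library, in the range of adjusted p = 0.103 to 0.131.

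**Figure D4:**
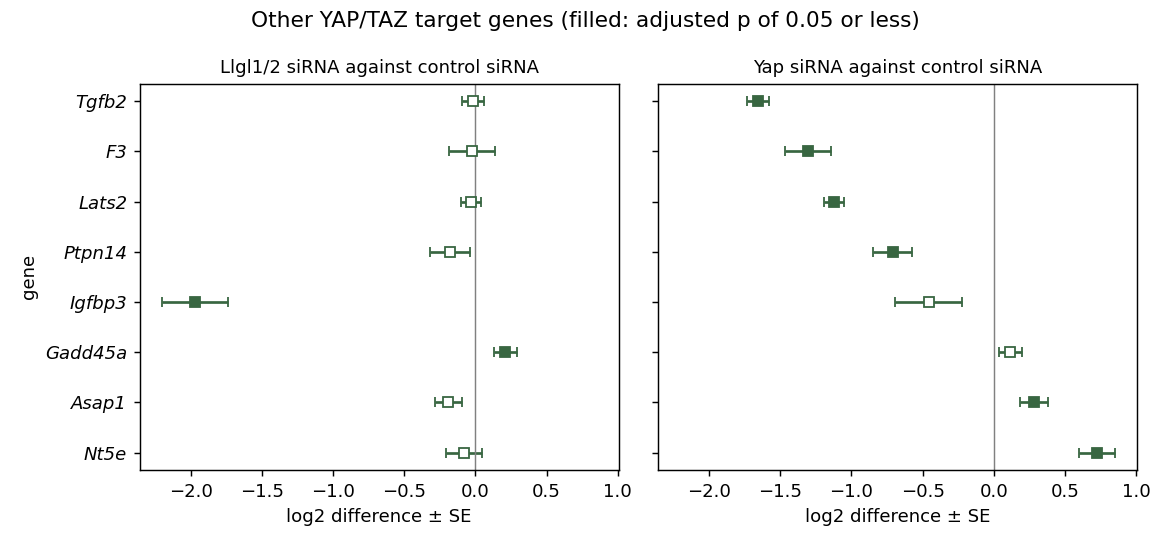
Log2 difference ± SE (x axis) of the 8 further YAP/TAZ target genes (rows), after Llgl1/2 siRNA on the left and Yap siRNA on the right, each against control siRNA; filled squares have an adjusted p of 0.05 or less. Tgfb2, F3 and Lats2 lie near 0 on the left and below -1 on the right, and Igfbp3 lies at -1.97 on the left.

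Of 13 tested Hippo pathway genes, 7 fell and 2 rose after Yap siRNA, Yap1 itself included, and 2 fell and 3 rose after Llgl1/2 siRNA. Over all tested genes, 48.0% were called in either direction after Yap siRNA and 40.2% after Llgl1/2 siRNA. Nothing is read from the counts. Wwtr1, which encodes TAZ, the coactivator related to YAP, averaged 31.6 ± 4.06 FPKM after Llgl1/2 siRNA and 26.2 ± 1.93 FPKM after Yap siRNA, against 40.3 ± 1.40 FPKM in the controls (SD, n = 3 each). It fell by 0.35 ± 0.093 after Llgl1/2 siRNA (limma, adjusted p = 0.0087) and fell by 0.60 ± 0.093 after Yap siRNA (adjusted p = 0.00014). The LATS cofactor gene Mob1a fell by 0.51 ± 0.094 after Llgl1/2 siRNA (limma, adjusted p = 0.00084) and fell by 0.73 ± 0.094 after Yap siRNA (adjusted p = 2.8e-05). Its relative Mob1b fell by 0.78 ± 0.13 after Yap siRNA (adjusted p = 0.00029). Among the TEAD genes, Tead3 rose by 0.30 ± 0.086 after Llgl1/2 siRNA (limma, adjusted p = 0.013) and by 0.35 ± 0.086 after Yap siRNA (adjusted p = 0.0038). Tead1, named after its values were seen, fell by 0.90 ± 0.20 after Yap siRNA (limma, adjusted p = 0.0035) and stood at -0.20 ± 0.20 after Llgl1/2 siRNA (adjusted p = 0.45). Tead2 rose by 0.27 ± 0.090 after Llgl1/2 siRNA (limma, adjusted p = 0.030), which was lost in 5 of the 6 fits that leave out 1 library (adjusted p = 0.053 to 0.124). The 3 rises after Llgl1/2 siRNA became 1, Tead3, when control library 1, control library 2, Llgl1/2 library 2 or Llgl1/2 library 3 was left out. Yap1 stood at -0.19 ± 0.11 after Llgl1/2 siRNA (limma, adjusted p = 0.18). YAP protein and its phosphorylation were not analysed here.

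Of the other CCN family genes, all 4 tested, Wisp2 fell by 0.93 ± 0.16 after Yap siRNA (limma, adjusted p = 0.00035) and no other member of the family passed there. With equal FPKM sums, and without control library 3 or Yap library 3, 2 of the family passed as lower. After Llgl1/2 siRNA, Wisp1 rose by 0.49 ± 0.12 (limma, adjusted p = 0.0057). Nov fell by 0.51 ± 0.17 there (adjusted p = 0.026), lost without Llgl1/2 library 3 (0.128) or control library 1 (0.107), and Wisp2 fell by 0.43 ± 0.16 (adjusted p = 0.0495), lost in 4 of 6 such fits (0.082 to 0.207). Of 12 tested partners and relatives of the remaining members, 4 fell and 1 rose after Yap siRNA, and 3 fell and 4 rose after Llgl1/2 siRNA, beside 48.0% and 40.2% of all genes called in either direction, and nothing is read from the counts. Without Yap library 2, 2 fell after Yap siRNA, and without Llgl1/2 library 3, 2 rose after Llgl1/2 siRNA. Gas6, the gene for the AXL ligand, rose after Llgl1/2 siRNA where Axl fell, with 137 ± 5.70 FPKM after Llgl1/2 siRNA and 89.1 ± 7.47 FPKM after Yap siRNA, against 105 ± 2.63 FPKM in the controls (SD, n = 3 each). The rise was 0.39 ± 0.073 on the log2 scale (limma, adjusted p = 0.00095) and Gas6 fell by 0.23 ± 0.073 after Yap siRNA (adjusted p = 0.017), a call lost without Yap library 2 (0.059). Mertk, another TAM receptor gene, rose by 0.61 ± 0.14 after Llgl1/2 siRNA (limma, adjusted p = 0.0034). It was weak, at 2.12 ± 0.43 FPKM after Llgl1/2 siRNA against 1.03 ± 0.057 FPKM in the controls. Nuak1, the relative of Nuak2, fell by 0.76 ± 0.10 after Yap siRNA (limma, adjusted p = 3.6e-05). Bmp4, the gene for a ligand of the family that CRIM1 binds, fell by 0.59 ± 0.10 after Llgl1/2 siRNA (adjusted p = 0.00052), and Dchs1, a gene for the cadherin partner of four-jointed, fell by 0.54 ± 0.14 (adjusted p = 0.0072). Dchs1 was also weak, at 0.83 ± 0.029 FPKM after Llgl1/2 siRNA against 1.66 ± 0.19 FPKM in the controls. Bmp2 rose by 0.47 ± 0.12 and Bmp7 fell by 0.34 ± 0.088 after Yap siRNA (limma, adjusted p of 0.0053 for each).

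Many of the 10 genes are also expressed by other cells of the heart, so markers of those cells are given beside them. Endothelial markers, 12 in the table and 11 tested, summed to 286 to 302 FPKM after Llgl1/2 siRNA and 411 to 483 FPKM after Yap siRNA, against 571 to 677 FPKM in the controls, the same order of groups as for Axl and Ccdc80. Of the 11, 10 fell after Llgl1/2 siRNA, and 6 fell and 1 rose after Yap siRNA. Smooth muscle and pericyte markers, all 8 tested, summed to 1617 to 1985 FPKM after Llgl1/2 siRNA and 705 to 811 FPKM after Yap siRNA, against 2997 to 3113 FPKM in the controls, the same order as for Ctgf and Cyr61. The sum is carried by Acta2, the smooth muscle actin gene, and over the list 2 fell and 3 rose after Llgl1/2 siRNA and 4 fell and 4 rose after Yap siRNA. The 2 falls became 1 without Llgl1/2 library 2 or control library 1, and the 4 rises became 2 with no filter on low values and without control library 3 or Yap library 1 or 3. Cardiac fibroblast markers, all 10 tested, summed to 313 to 399 FPKM after Llgl1/2 siRNA and 389 to 482 FPKM after Yap siRNA, against 342 to 497 FPKM in the controls. After Yap siRNA 5 of these rose and none fell, and after Llgl1/2 siRNA 3 fell and 1 rose. The sum is carried by the collagen genes Col1a1 and Col1a2, which were called in neither comparison. Dcn and Lum fell after Llgl1/2 siRNA and rose after Yap siRNA, and Thy1 rose after both. Dcn averaged 7.46 FPKM after Llgl1/2 siRNA and 33.3 FPKM after Yap siRNA, against 15.9 FPKM in the controls. The 5 rises became 3 without control library 3 or Yap library 1 or 2, and 1 marker fell after Yap siRNA without control library 3. The 3 falls after Llgl1/2 siRNA became 6 without control library 3 and 5 with replicate number as a block. Leukocyte markers, all 9 tested, summed to 98.3 to 125 FPKM after Llgl1/2 siRNA and 124 to 167 FPKM after Yap siRNA, against 128 to 165 FPKM in the controls, with 4 lower after Llgl1/2 siRNA, 2 without control library 2, and 4 lower and 2 higher after Yap siRNA. Epicardial and mesothelial markers, 7 in the table, summed to 43.4 to 55.1 FPKM after Llgl1/2 siRNA and 11.04 to 16.2 FPKM after Yap siRNA, against 26.4 to 35.1 FPKM in the controls, with Krt18 the largest part in the Llgl1/2 siRNA and control libraries. Of the 6 of these that were tested, 2 rose after Llgl1/2 siRNA, the keratin genes Krt18 and Krt8, and 3 fell after Yap siRNA. The other 4 were not called after Llgl1/2 siRNA. There Msln, Upk1b and Wt1 stood at -0.16, -0.25 and -0.24 on the log2 scale and Aldh1a2 at 0.051. Working cardiomyocyte markers, 11 tested, summed to 23963 to 25566 FPKM after Llgl1/2 siRNA and 30284 to 33715 FPKM after Yap siRNA, against 19829 to 23277 FPKM in the controls, with 7 higher and 1 lower after Llgl1/2 siRNA and 8 higher and 2 lower after Yap siRNA. Beside these counts, 18.1% of all tested genes fell and 22.1% rose after Llgl1/2 siRNA, and 27.5% fell and 20.5% rose after Yap siRNA. The part of these markers in the falls of the 10 genes was not tested.

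**Figure D5:**
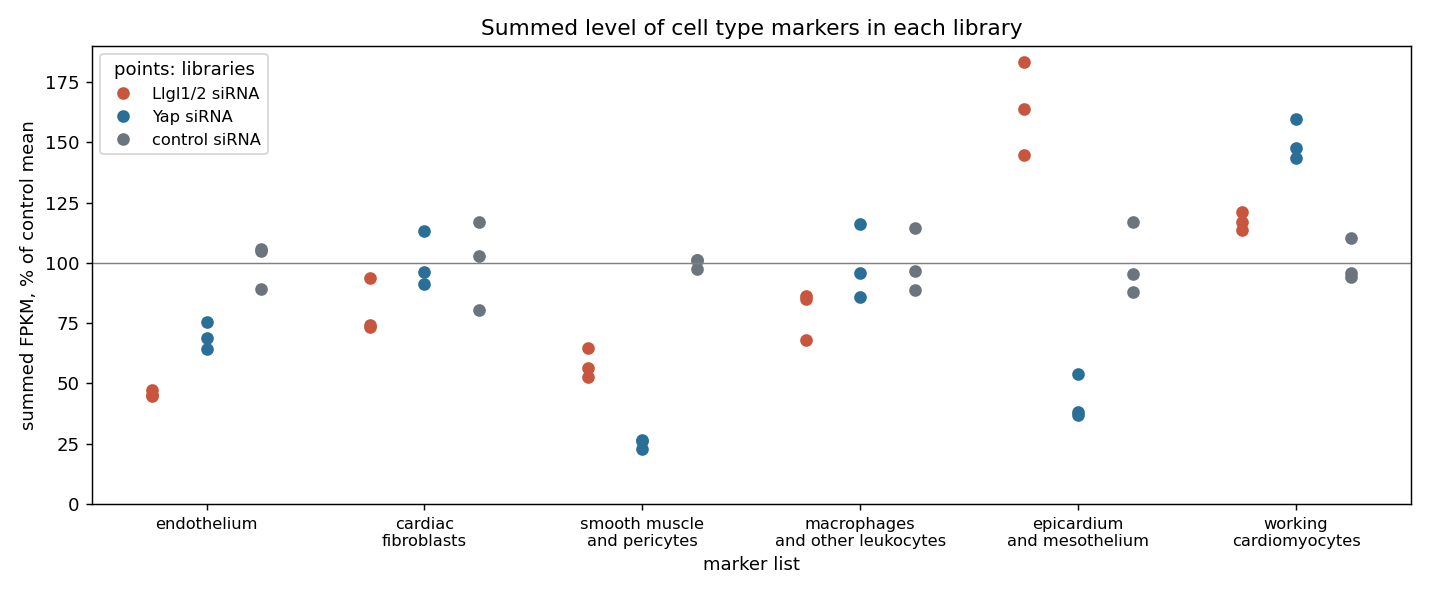
Summed FPKM of 6 cell type marker lists (x axis) in each library, as a percentage of the mean of the 3 control libraries (y axis, linear, from 0); points are libraries. Endothelial sums averaged 45.7% of the control mean after Llgl1/2 siRNA and 69.6% after Yap siRNA, and smooth muscle sums 57.9% and 25.2%. The smooth muscle sum is carried by Acta2. Of the 8 smooth muscle markers, 2 fell and 3 rose after Llgl1/2 siRNA, and 4 fell and 4 rose after Yap siRNA.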

How the data were processed

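RNA-seq was read from 9 libraries, 3 per siRNA group. The authors deposited FPKM per gene and library, per the file headers. Per the submitters' processing notes, tools included HISAT and Bowtie2 and the build was rn6, with no role or version, and the counting tool and annotation are not given in the sources used here. The table has no counts, so no count test was run, and 1 further column, equal to Llgl1/2 library 2, was not used.

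From the FPKM, log2(FPKM + 1) was fitted in limma 3.58.1 (R 4.3.3) with a mean per group over all 9 libraries, a variance trend and robust moderation. Folds on this scale understate changes of weak genes. A gene was tested if 3 or more libraries reached 1 FPKM, and p-values were adjusted by Benjamini and Hochberg over all 10789, threshold 0.05, two-sided. The code was tested on simulated data. Tables and figures were made in Python 3.11.15 with matplotlib 3.10.9, numpy 2.4.6 and pandas 2.3.3.

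The 10 members and all lists were chosen with earlier results of these data known. From each list other than the cell type markers, up to 4 genes per comparison with the control were named, those with the smallest p among those called. Genes said to be named after their values were seen are outside this rule. So are the cell type markers, which were named whether called or not.

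Alternatives were a pseudocount of 0.1, no filter, 3 other scalings (equal FPKM sums, median ratio, quantile), a block for replicate number, a fit to just the 6 libraries of a comparison, leaving out each library, an adjusted p of 0.01, and a minimum log2 difference of 0.5. Between Llgl1/2 and Yap siRNA, same-numbered libraries deviated together from their group means (correlation across genes of 0.236, 0.119 and 0.119). The labels state no pairing. The main fit, the source of all values given without a named setting, is unpaired, and replicate number entered only in the block setting. Promoter sequences came from RefSeq (GRCr8), matched by gene ID, and motifs were searched from 250 bases before to 50 after the start. FPKM depends on the annotation and on how shared reads were assigned, neither of which is known.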

Additional observations from a re-analysis of the deposited data

How the results depend on the processing

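The number of the 10 genes called was the same within 1.5 times under most settings. After Llgl1/2 siRNA, 9 genes were called, 4 at an adjusted p of 0.01, where 26.0% of all genes passed, and 3 with a log2 difference of at least 0.5, where 17.1% did. After Yap siRNA, 10 genes were called and 5 with a log2 difference of at least 0.5, where 21.9% of all genes passed. In the direct comparison 6 were called and 3 with that minimum, where 20.4% passed. Leaving out 1 library gave 5 to 7 genes after Llgl1/2 siRNA, 9 to 10 after Yap siRNA and 5 to 6 in the direct comparison, with fewer libraries in each such fit. Shares of all genes called in those fits are not given here. With 2 libraries left in a group, the fit shares its spread with the other groups.

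Signs turned in the direct comparison for 2 genes that were not called. Fjx1, at 0.0036, stood at -0.065 with median-ratio scaling, -0.124 with quantile normalization, and -0.062, -0.017 and -0.096 without Llgl1/2 library 1, Llgl1/2 library 3 and Yap library 2, within a range of -0.096 to 0.090 over the fits that leave out 1 library. Ankrd1, at 0.047, stood at -0.035 with median-ratio scaling. The cause was not tested.

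With replicate number as a block, 10 genes were called after Llgl1/2 siRNA, 10 after Yap siRNA and 6 in the direct comparison. Amotl2 after Llgl1/2 siRNA was the 1 call of a member that changed. Calls over all tested genes also rose with the block. After Llgl1/2 siRNA they were 2125 lower and 2596 higher, against 1958 and 2380 in the main fit. After Yap siRNA they were 3173 lower and 2385 higher, against 2964 and 2217. In the direct comparison they were 2224 lower and 3228 higher, against 2046 and 3024. Nothing is read from the member counts. Same-numbered Llgl1/2 and control libraries had correlations of deviations of 0.115, 0.010 and 0.088, and Yap and control libraries 0.171, 0.043 and 0.096. All of these were positive, but not every library correlated best with its own number. Whether the numbers pair knockdown and control libraries cannot be told from these values. Without counts, the depth behind the weakest of the 10 genes, Nuak2 and Fjx1, is unknown.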

Other observations

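Among the Llgl1/2 siRNA libraries, library 1 held the highest value for 8 of the 10 genes, beside 31.2% of all tested genes. Yap library 2 held the lowest Yap siRNA value for 6 of the 10, beside 43.5% of all tested genes. Control library 2 held the highest control value for 7 of the 10, beside 34.3%, and control library 3 the lowest for 7, beside 42.4%.

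Promoter windows were also read for the further YAP/TAZ target genes, after those of the 10 had been seen. Of the 5 with a window, Igfbp3, Gadd45a, Nt5e, Ptpn14 and Tgfb2, only Ptpn14 held the TEAD motif GGAATG, with 1 copy. Ptpn14, a phosphatase gene named here after its values were seen, averaged 5.46 ± 1.05 FPKM after Llgl1/2 siRNA and 3.44 ± 0.41 FPKM after Yap siRNA, against 6.28 ± 0.83 FPKM in the controls (SD, n = 3 each), and was higher after Llgl1/2 siRNA than after Yap siRNA by 0.53 ± 0.14 on the log2 scale (limma, adjusted p = 0.0067). Tgfb2, which held no copy in its window, differed in the same direction by 1.64 ± 0.078. A match in the window was therefore not shared by all genes that were lower after Yap siRNA than after Llgl1/2 siRNA.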
